A study of Mus musculus with 31 samples.

Results

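Potassium channel genes were taken as the protein-coding genes of the deposited counts table whose mouse symbol begins with Kcn, pore-forming and accessory subunits alike. The rule found 94 genes among 54532, and 5 non-coding genes with Kcn symbols, Kcnq1ot1 among them, were left out. Of the 94 genes, 82 passed the filter on low counts and were tested. The other 12 had between 0 and 611 read pairs over all libraries together. By family, the 94 genes were 17 Kv1 to Kv4 pores, 15 inward rectifiers (Kir), 14 two-pore leak channels (K2P), 10 electrically silent Kv5, Kv6, Kv8 and Kv9 subunits, 8 Kv10 to Kv12 pores, 8 calcium- or sodium-activated pores, 5 Kv7 pores and 17 accessory subunits. Families were set by symbol and not by gating or role. Kcnu1 was thus counted with the calcium- or sodium-activated pores and Kcnrg with the accessory subunits.

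Potassium channels let potassium leave the cell, set the resting potential and end action potentials. Voltage-gated Kv channels open on depolarisation, Kir channels pass current best near rest, K2P channels carry leak, and calcium-activated channels follow spikes and calcium entry. In the hypothalamus, ATP-sensitive channels couple the firing of glucose-sensing neurons to their energy state, G-protein-gated Kir channels carry inhibition by neurotransmitters and peptides, and the Kv7 M current is a target of hormonal control of excitability.

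RNA came from the hypothalamus of C57BL/6J mice, an inbred strain, at 4 months of age. Their dams ate either a control diet or an obesogenic diet, high in fat and sugar, through pregnancy and lactation. Pups went onto standard chow at weaning on postnatal day 21. From 3 months of age every group, also the offspring of control dams, was itself fed obesogenic diet during 4 weeks, so no group stayed on chow. The 4 groups were 8 libraries of female and 8 of male offspring of control dams (control females, control males), and 7 of female and 8 of male offspring of obesogenic dams (obesogenic females, obesogenic males). Libraries held 23118626 to 38547288 counted read pairs. The labels name no animals or litters, so p-values here measure the spread between libraries, which may share litters.

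Before the results, 5 libraries need naming, and most fold changes and counts below are given with all 31 libraries and with the other 26. Control female 7 and control male 7 carried Xist and Y-linked reads opposite to their labelled sex. Control female 5, control male 6 and obesogenic female 3 stood apart, with median correlations to the other libraries of 0.910, 0.914 and 0.936, against at least 0.967 in the other 26. In control female 5 the 20 hypothalamus markers summed to 172 CPM (counts scaled to a common library size) against 1364 to 2572 CPM in the other 26 libraries, 18 of them lay below that range, and 7, Agrp among them, were at 0. All 10 olfactory bulb markers lay above the range there, with a sum of 3188 CPM against 319 to 567 CPM, so the tissue label does not match the markers of that library. In control male 6 the hypothalamus sum of 4276 CPM lay above that of the other 26, with 9 of 20 markers above their range, as did the oligodendrocyte sum (11218 CPM against at most 9131) and the microglia sum (740 CPM against at most 586). In obesogenic female 3 the hypothalamus sum, 1889 CPM, lay within the range. Both had fewer genes detected, 18734 and 18513 against at least 21311.

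Levels were compared between genes as RPKM, CPM divided by exon length in kilobases. The inward rectifiers were the most abundant family, with 29.1% ± 2.73 of the summed RPKM of all 94 genes (SD over 31 libraries). The sum itself was 568 to 719 RPKM in the 26 libraries not in doubt. Much of the Kir share came from Kcnj10 alone, whose level is given below, and the ranking without that gene was not computed. Kv1 to Kv4 pores followed with 22.6% ± 1.48, accessory subunits with 21.1% ± 1.43 and K2P channels with 10.3% ± 1.04. Kv7, the calcium- or sodium-activated pores, Kv10 to Kv12 and the silent subunits took 4.59%, 4.43%, 4.19% and 3.74%. A total of 21 genes reached 10 RPKM, 47 lay between 1 and 10 RPKM and 26 below 1 RPKM.

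Kcnj10, the Kir4.1 channel of astrocytes and oligodendrocytes that clears extracellular potassium, was the highest at 111 ± 22.7 RPKM. Next came Kcnab2, a beta subunit of Kv1 channels, at 31.8 ± 4.93 RPKM, and Kcnk1, the TWIK-1 leak channel, at 24.8 ± 4.09 RPKM. Kcnip3 (24.2 RPKM) and Kcnip4 (20.5 RPKM), calcium-binding partners of Kv4 channels, lay close to Kcnc4 (23.5 RPKM), a fast Kv3 pore, Kcnj16 (22.1 RPKM), the Kir5.1 partner of Kcnj10, and Kcna6 (20.2 RPKM), a Kv1 pore. These 5 neighbours had SDs of 2.80 to 4.21 RPKM over the 31 libraries, and their order was not tested. Well-expressed genes of other families were Kcnh2 (14.3 RPKM), the ERG channel, Kcnf1 (13.2 RPKM), a silent Kv5 subunit, and Kcnt1 (10.3 RPKM), a sodium-activated pore. These means are over all 31 libraries. That of Kcnf1 includes 82.5 RPKM in control female 5, against 8.22 to 14.2 RPKM in the other libraries.

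**Figure D1:**
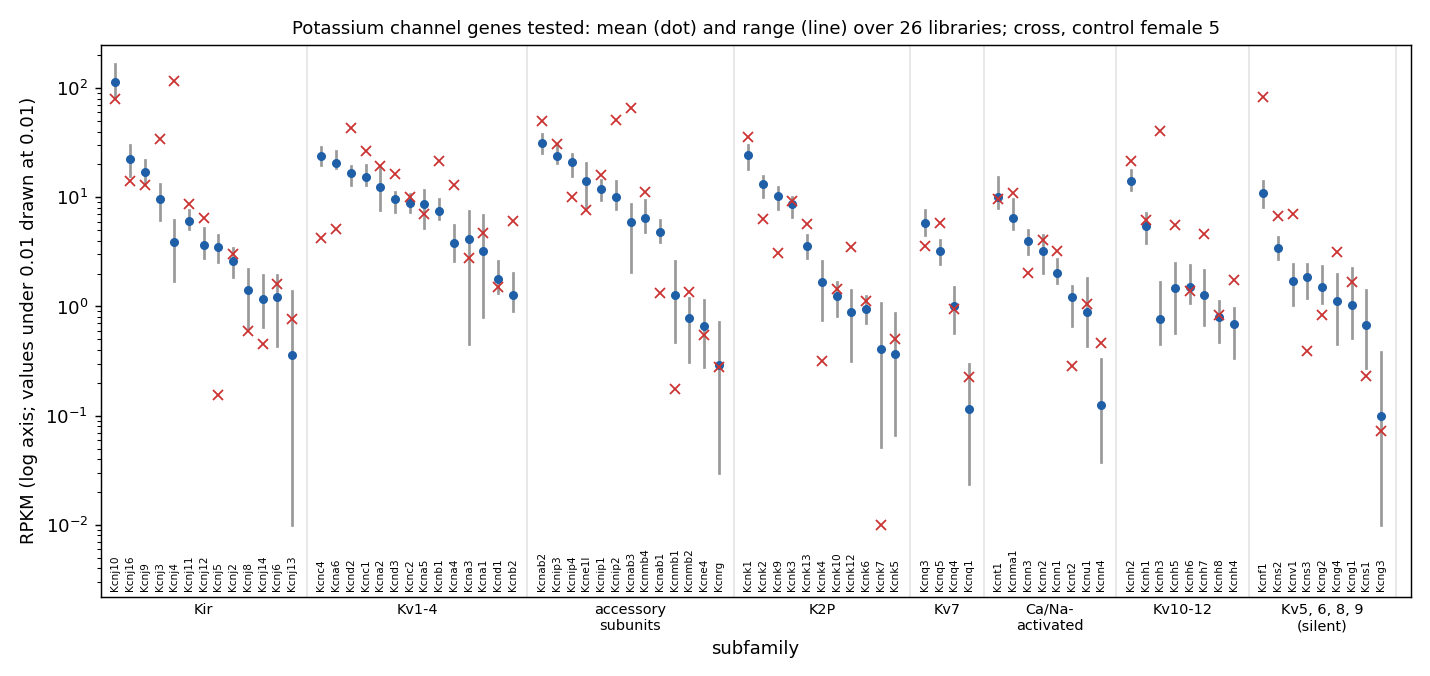
Level of the potassium channel genes tested, all but 2, in RPKM on a log axis, grouped by subfamily; dots are means and lines the range over the 26 libraries not in doubt, and crosses are control female 5. Kcnj10 is the highest dot at 113 RPKM, and the crosses of Kcnj4, Kcnf1, Kcnab3 and Kcnh3 lie far above their lines.

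No potassium channel gene was called in any of 6 comparisons at an adjusted p under 0.05 (edgeR quasi-likelihood test, Benjamini-Hochberg over 18743 genes), and neither DESeq2 nor limma voom called one. edgeR called 0% of all genes in each comparison. This held for sex within obesogenic dams too, where the smallest adjusted p of any gene was 0.0702. There Xist was 205 to 716 CPM in females and at most 0.0562 CPM in males. Y-linked reads were 0 CPM in females and 122 to 157 CPM in males. With 31 libraries edgeR thus missed even these differences. The fit shares the spread of each gene over all 31 libraries. Among them are control female 7 and control male 7, with sex-linked reads opposite to their labels. The part of these libraries in the miss was not tested, and sex-linked genes do not stand for potassium channel genes here. For either, a lack of calls does not show a lack of difference. DESeq2 called 0.032% of all genes in females, 0.00534% in males, 0.0267% averaged, 0.032% for the interaction, and 0.00534% and 0.064% for sex within control and obesogenic dams. voom called 0.0107% in the last of these and 0% in the others. Without the 5 libraries edgeR called 0.0588% and 0.0749% of all genes for sex within control and obesogenic dams, and again 0 members. For maternal diet averaged over the sexes, 7 of 82 genes had an unadjusted p under 0.05 in edgeR, 5 in DESeq2 and 5 in voom. All 7 were lower in offspring of obesogenic dams. Over all genes tested the share was 10.2% in edgeR (6.37% lower), 10.7% in DESeq2 and 7.98% in voom, so 7 of 82, or 8.54%, is near the background. Without the 5 libraries the count was 4 of 82, against 7.95% of all genes.

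In females 11 of 82 genes had an unadjusted p under 0.05 (8 in DESeq2, 10 in voom), against 8.12% of all genes (8.12% in DESeq2, 12.8% in voom), and 5 against 8.4% without the 5 libraries. In males the counts were 2 against 3.45% (3 against 4.21% in DESeq2, 2 against 3.68% in voom), and 3 against 2.7% without them. The smallest adjusted p of any member was 0.5003 in females, 0.940 in males and 0.464 averaged. The fit bounds the differences: in the averaged comparison the 95% interval lay within a log2 difference of 0.5 on either side of 0 for 52 of 82 genes, and within 0.25 for 16. These counts were 65 and 38 without the 5 libraries. In bulk tissue, fewer cells of a type and less RNA per cell cannot be told apart.

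Directions differed between the sexes and with the libraries used. In females 32 of 82 genes lay above 0, against 47.5% of all genes (median log2 fold change -0.08, all genes -0.01). With the 26 libraries 41 of 82 did, against 48.8%, with a median of 0.00. Males had 57 of 82 above 0 with a median of 0.08, where 50.1% of all genes lay above 0. Without the 5 libraries 56 of 82 did, against 52%, with a median of 0.04, and voom with quality weights put 43 of 82 above 0, against 51.3%. Averaged over the sexes 44 of 82 lay above 0 against 47.5%, and 53 against 49.3% without the 5 libraries. Summed over the family, levels overlapped in all groups: 3376 to 5430 CPM in control females, 3444 to 3996 in obesogenic females, 3183 to 4124 in control males and 3471 to 4219 in obesogenic males. The highest and lowest of these sums were control female 5 and control male 6.

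**Figure D2:**
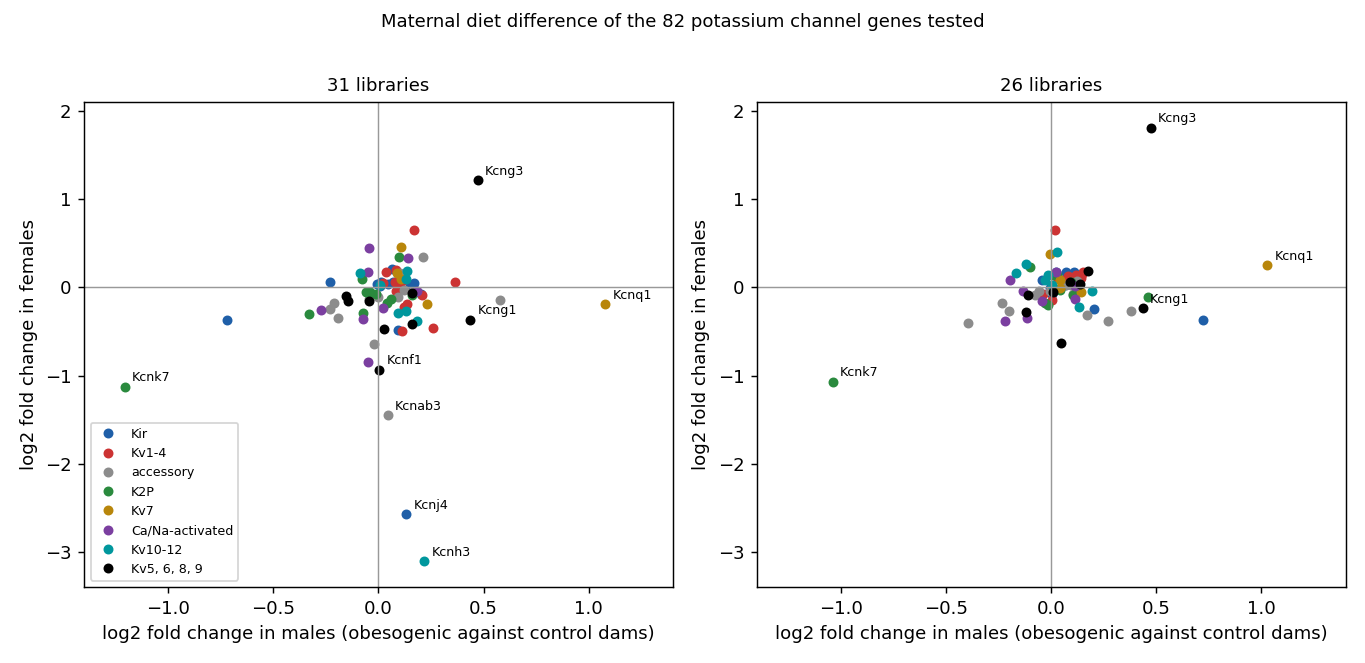
Log2 fold change for maternal diet (obesogenic against control dams) of the 82 tested potassium channel genes, males on the x axis and females on the y axis, coloured by subfamily, with 31 libraries (left) and with 26 (right). Kcnh3, Kcnj4, Kcnab3 and Kcnf1 lie between -3.11 and -0.93 in females on the left and between -0.31 and -0.05 on the right, where they are not named.

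Among the inward rectifiers 9 of 13 tested genes lay above 0 for diet averaged over the sexes, with a median of 0.04, and 8 of 13 without the 5 libraries. Kcnj11, the Kir6.2 pore of ATP-sensitive channels in neurons, was 19.1 to 32.3 CPM in control females (median 21.3) and 19.3 to 26.2 in obesogenic females (median 23.4). It was 17.97 to 24.6 CPM in control males (median 21.9) and 18.97 to 27.9 in obesogenic males (median 22.6). The groups overlapped almost wholly, with a log2 fold change of 0.04 (95% interval -0.10 to 0.19). With the 5 libraries left out it was 0.10 (-0.02 to 0.22). Kcnj8, the Kir6.1 pore of ATP-sensitive channels in vessels, had group medians of 2.92 to 4.27 CPM and a log2 fold change of 0.14 (-0.19 to 0.46), or -0.01 without the 5 libraries.

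Kcnj10 ranged from 427 to 830 CPM in control females (median 557), 492 to 768 in obesogenic females (median 570), 455 to 892 in control males (median 587) and 439 to 823 in obesogenic males (median 576). The medians lay close together and the group ranges overlapped almost wholly. The averaged log2 fold change was 0.01 (95% interval -0.19 to 0.22), and -0.02 (-0.26 to 0.22) without the 5 libraries. Kcnj16, which joins Kcnj10 in mixed channels, followed it from library to library, with a Spearman correlation of 0.90 over the 26 libraries and 0.90 over all 31. The summed level of 10 astrocyte markers moved with Kcnj10, with a correlation of 0.93 over the 26 libraries, and spanned 4236 to 6963 CPM in control females, 4579 to 7220.5 in obesogenic females, 4877 to 7774 in control males and 4325 to 7053 in obesogenic males. Other marker sums also ran with or against Kcnj10 over the 26 libraries, at 0.76 for oligodendrocytes, 0.70 for microglia and -0.67 for the olfactory bulb list. Most of the olfactory bulb sum in those libraries was Calb2 (median 260 CPM) and Nrgn (90.7 CPM). The libraries differ in depth, and the part of cell makeup was not tested.

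A second pair moved together: Kcnj4, the Kir2.3 rectifier, and Kcnj9, the Kir3.3 subunit of G-protein-gated channels, with a correlation of 0.84 over 26 libraries and 0.54 over 31. Over the 26 libraries Kcnj4 also ran with the sum of thalamus markers (0.69). It ran against the astrocyte (-0.71), microglia (-0.58) and oligodendrocyte (-0.55) sums, and the part of tissue makeup was not tested. Both pairs were picked after their values were seen. Their 250 bases upstream of the RefSeq start are shown here with those of Kcnj10 and Kcnj16 to set the 2 co-varying pairs side by side, 5′ to 3′ on the strand of the gene. Capitals mark the GC box, GGGCGG on either strand (CCGCCC on the strand printed).
Kcnj10: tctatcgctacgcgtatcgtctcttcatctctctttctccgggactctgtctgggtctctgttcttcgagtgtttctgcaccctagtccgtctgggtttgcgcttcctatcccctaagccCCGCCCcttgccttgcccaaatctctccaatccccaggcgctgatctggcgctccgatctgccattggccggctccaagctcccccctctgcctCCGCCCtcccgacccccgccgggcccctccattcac
Kcnj16: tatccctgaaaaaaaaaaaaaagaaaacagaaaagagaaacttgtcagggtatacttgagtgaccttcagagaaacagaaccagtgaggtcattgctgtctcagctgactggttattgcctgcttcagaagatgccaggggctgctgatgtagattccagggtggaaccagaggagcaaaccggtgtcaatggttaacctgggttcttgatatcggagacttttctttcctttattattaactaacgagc
Kcnj4: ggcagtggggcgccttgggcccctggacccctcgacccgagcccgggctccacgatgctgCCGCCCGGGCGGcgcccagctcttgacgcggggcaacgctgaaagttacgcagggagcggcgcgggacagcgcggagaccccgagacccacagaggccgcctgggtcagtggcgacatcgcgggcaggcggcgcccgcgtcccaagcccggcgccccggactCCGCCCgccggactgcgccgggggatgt
Kcnj9: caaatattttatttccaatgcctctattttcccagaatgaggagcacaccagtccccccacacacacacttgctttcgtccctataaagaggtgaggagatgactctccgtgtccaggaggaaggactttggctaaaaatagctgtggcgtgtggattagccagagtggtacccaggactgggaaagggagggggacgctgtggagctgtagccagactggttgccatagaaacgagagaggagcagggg
In build GRCm38.p6 they lie at chr1:172340960-172341209 (plus strand, Kcnj10), chr11:110967783-110968032 (plus, Kcnj16, 1 of 4 starts in the table), chr15:79505242-79505491 (minus, Kcnj4) and chr1:172329323-172329572 (minus, Kcnj9), each just upstream of that start. The GC box occurred 2 times before Kcnj10, 3 times before Kcnj4 and 0 times before Kcnj16 and Kcnj9, with 17, 35, 3 and 5 CpG dinucleotides. In the windows shown, each pair joins one with the box to one without it. Of all 32851 promoter windows of this length in the table, 32.7% held the box, and 44.7% of 94 windows of 69 potassium channel genes did. A match describes the letters and is not a binding site.

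Kcnj4 itself was 7.20 to 252.5 CPM in control females (median 8.93), 3.495 to 10.8 in obesogenic females (median 5.14), 5.68 to 12.3 in control males (median 8.49) and 5.95 to 13.2 in obesogenic males (median 9.70). The 252.5 CPM came from control female 5 alone, and the next control female had 10.9 CPM. The log2 fold change in females was -2.57 ± 0.68 (SE; adjusted p = 0.5003, edgeR) with that library, and -0.24 ± 0.23 (adjusted p = 0.802) without the 5. In males it was 0.13 ± 0.61, or 0.21 ± 0.22 without them. Kcnj9 ranged from 55.1 to 94.4 CPM over all libraries with an averaged log2 fold change of 0.06 (95% interval -0.07 to 0.20), and 0.05 (-0.09 to 0.18) without the 5 libraries. Of the other G-protein-gated subunits, Kcnj3 had an averaged value of -0.19 ± 0.15, Kcnj5 0.04 ± 0.20 and Kcnj6 0.11 ± 0.22. With the 26 libraries these were 0.05 ± 0.09, -0.04 ± 0.09 and 0.14 ± 0.23, so the sign of Kcnj3 and Kcnj5 turned.

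Kv1 to Kv4 pores, which repolarise spikes in axons and dendrites, had 11 of 15 tested genes above 0 averaged over the sexes (13 without the 5 libraries) and a median of 0.06. In males all 15 lay above 0, from 0.02 to 0.36, although none had an unadjusted p under 0.05. That count was 14 of 15 without the 5 libraries, 13 of the genes tested without control male 6 alone, 12 with the trend in gene length removed, 10 with 2 surrogate variables and 9 with voom. In females 8 of 15 were above 0, or 12 without the 5 libraries. Kcnc2, a fast Kv3 pore of spiking interneurons, had an averaged log2 fold change of 0.11 (95% interval -0.03 to 0.25), and 0.07 (-0.05 to 0.19) without the 5 libraries.

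Kcna3 and Kcna1, Kv1 pores of axons, varied most between the 26 libraries, with SDs of log2 CPM of 0.92 and 0.69, against 0.11 for Kcna6 and 0.12 for Kcnc4, the steadiest. Kcna3 was 0.854 to 12.9 CPM in control females (median 5.22), 2.36 to 13.9 in obesogenic females (median 9.70), 0 to 10.7 in control males (median 8.10) and 2.28 to 14.4 in obesogenic males (median 5.54). Low and high libraries occurred in all 4 groups. Over the 26 libraries Kcna3 correlated with Kcna2 (0.89) and Kcna1 (0.89), and Kcnj6 correlated with Kcna2 (0.90) and Kcna1 (0.88), pairs chosen after their values were seen. Kcna2 and Kcna3 lie on chromosome 3 at 107101146 to 107115005 and 107036169 to 107038070, but Kcna1 lies on chromosome 6. Of the marker lists, the olfactory bulb sum ran against Kcna3 (-0.65) and the astrocyte sum with it (0.52). In the 26 libraries the olfactory bulb sum was mostly Calb2 (median 260 CPM), which is also on the thalamus list, and Nrgn (90.7 CPM). Cdhr1 and Tbx21 had medians of 4.72 and 0.351 CPM there. The part of tissue makeup was not tested.

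The 250 bases upstream of Kcna3, the most variable gene, held 2 GC boxes and 31 CpG dinucleotides (chr3:107035912-107036161, plus strand, GRCm38.p6, RefSeq), with the boxes in capitals.
Kcna3: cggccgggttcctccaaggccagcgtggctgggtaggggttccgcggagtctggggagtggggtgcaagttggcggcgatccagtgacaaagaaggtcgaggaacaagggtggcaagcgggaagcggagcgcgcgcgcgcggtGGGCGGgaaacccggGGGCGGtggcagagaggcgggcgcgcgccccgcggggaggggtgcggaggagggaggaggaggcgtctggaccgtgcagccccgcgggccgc

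Kv7 subunits form the M current, which holds neurons back from repetitive firing. All 5 tested genes lay above 0 averaged over the sexes, with and without the 5 libraries, and all 5 did in males (4 without them, 3 with voom). Kcnq3, the Kv7.3 subunit of the M current, was 53.0 to 91.4 CPM in control females (median 85.04), 66.4 to 108 in obesogenic females (median 87.3), 39.9 to 103 in control males (median 89.2) and 67.5 to 113 in obesogenic males (median 87.4). Its 2 lowest values, 53.0 and 39.9 CPM, came from control female 5 and control male 6, and the group ranges overlapped. The averaged log2 fold change was 0.10 (95% interval -0.11 to 0.32, adjusted p = 0.733, edgeR), and 0.02 (-0.15 to 0.18) without the 5 libraries. It lay below 0 with voom, with 2 surrogate variables and without the 3 libraries that stand apart. Kcnq5, another M-current subunit, had an averaged value of 0.02 ± 0.12, and 0.05 ± 0.09 without the 5 libraries. Kcnq1, the Kv7.1 channel, was near the floor of the data with group medians of 0.245 to 0.582 CPM.

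**Figure D3:**
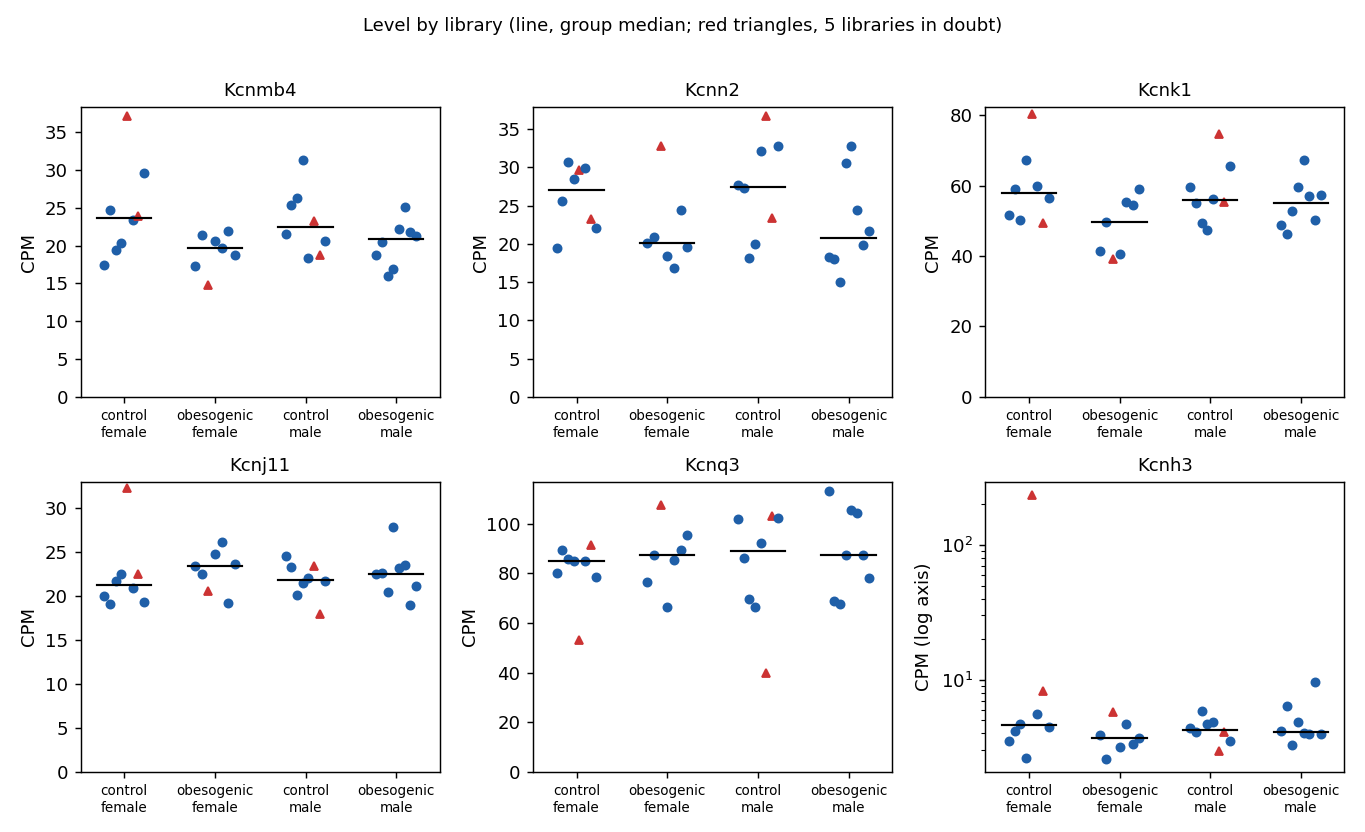
Level in CPM of 6 potassium channel genes in each library by group, with the group median as a line, the 5 libraries in doubt as red triangles, axes from 0 and a log axis for Kcnh3. Groups overlap in every panel, and the Kcnh3 library at 233 CPM is control female 5.

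Kv10 to Kv12 pores (EAG, ERG and ELK channels, slow voltage-gated channels) had 4 of 8 genes above 0 averaged over the sexes and 7 of 8 without the 5 libraries. Kcnh3, an ELK channel of forebrain neurons, was 2.63 to 233 CPM in control females (median 4.58), 2.60 to 5.77 in obesogenic females (median 3.67), 2.95 to 5.87 in control males (median 4.26) and 3.29 to 9.63 in obesogenic males (median 4.09). Control female 5 held the 233 CPM. Its log2 fold change in females was -3.11 ± 0.79 (adjusted p = 0.5003, edgeR), the largest of all members, and -0.23 ± 0.22 without the 5 libraries. Averaged over the sexes it was -1.45 ± 0.52, and -0.05 ± 0.15 without them.

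The silent subunits, which form no channel alone and modify Kv2 pores, had 3 of 9 genes above 0 averaged over the sexes and 5 of 9 without the 5 libraries. Kcnf1 was 44.4 to 395 CPM in control females (median 55.1), 39.4 to 67.8 in obesogenic females (median 46.5), 43.2 to 62.7 in control males (median 50.4) and 41.1 to 62.0 in obesogenic males (median 52.4). Its log2 fold change in females was -0.93 ± 0.35, and -0.05 ± 0.12 without the 5 libraries, of which control female 5 held the 395 CPM. Kcng1, a Kv6 subunit, was 3.79 to 7.60 CPM in control females (median 5.38) and 2.63 to 5.31 in obesogenic females (median 4.62). It was 3.25 to 5.21 CPM in control males (median 3.66) and 2.33 to 10.2 in obesogenic males (median 4.64). All 7 obesogenic females lay below the control female mean and 7 of 8 obesogenic males above the control male mean, with overlapping ranges. Leaving out the 5 libraries made these 5 of 6 and 7 of 8. The difference between the sexes in the diet effect was -0.80 ± 0.29 on the log2 scale, with an adjusted p of 0.9996 (edgeR), and -0.67 ± 0.31 without the 5 libraries.

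Two-pore leak channels had 3 of 11 genes above 0 averaged over the sexes and 8 of 11 without the 5 libraries. Kcnk1 was 49.4 to 80.2 CPM in control females (median 57.8), 39.3 to 59.0 in obesogenic females (median 49.6), 47.5 to 74.7 in control males (median 55.8) and 46.2 to 67.4 in obesogenic males (median 55.0). The averaged log2 fold change was -0.18 ± 0.08 (adjusted p = 0.464, edgeR), and -0.11 ± 0.07 (adjusted p = 0.693) without the 5 libraries. It was -0.29 ± 0.11 in females and -0.07 ± 0.11 in males, and -0.20 ± 0.10 and -0.01 ± 0.09 with the 26 libraries. Kcnk9, the TASK-3 leak channel, lay the other way at 0.22 ± 0.11, and at 0.08 ± 0.07 without the 5 libraries.

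Kcnk7, a two-pore subunit that gives no current on its own, had the second smallest averaged p but only 483 read pairs in all. It was 0 to 1.25 CPM in control females (median 0.56803), 0 to 0.615 in obesogenic females (median 0.119), 0.289 to 1.52 in control males (median 0.771) and 0.241 to 0.450 in obesogenic males (median 0.339). All 8 obesogenic males lay below the control male mean, and 5 of 7 obesogenic females below the control female mean, or 8 of 8 and 5 of 6 without the 5 libraries. The averaged log2 fold change was -1.17 ± 0.41 (adjusted p = 0.464, edgeR) and -1.05 ± 0.34 (adjusted p = 0.599) without the 5 libraries.

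Calcium- and sodium-activated pores shape the pause after a spike. This class, with Kcnu1 placed in it by symbol, had 4 of 8 genes above 0 averaged over the sexes and 2 of 8 without the 5 libraries. Kcnn2, the SK2 channel of the medium afterhyperpolarisation, was 19.4 to 30.8 CPM in control females (median 27.03), 16.8 to 32.8 in obesogenic females (median 20.1), 18.2 to 36.8 in control males (median 27.5) and 14.96 to 32.8 in obesogenic males (median 20.8). Medians were lower after maternal obesogenic diet in both sexes, with overlapping ranges. The log2 fold change was -0.26 ± 0.16 in females, -0.27 ± 0.16 in males and -0.27 ± 0.11 averaged (adjusted p = 0.464, edgeR). Without the 5 libraries these were -0.38 ± 0.17, -0.22 ± 0.16 and -0.30 ± 0.11 (adjusted p = 0.599 for the averaged value, edgeR). In that set 6 of 6 obesogenic females and 6 of 8 obesogenic males lay below their control mean. Kcnma1, the BK channel, had 89.8 to 149 CPM in obesogenic females against 90.9 to 185 in control females, and an averaged log2 fold change of 0.07 (95% interval -0.14 to 0.29), and 0.07 (-0.10 to 0.23) without the 5 libraries.

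Accessory subunits had 5 of 13 tested genes above 0 averaged over the sexes, both with and without the 5 libraries. Kcnmb4, the neuronal beta subunit that slows BK channels, had the smallest averaged p of all members. It was 17.5 to 37.2 CPM in control females (median 23.6), 14.8 to 21.98 in obesogenic females (median 19.7), 18.4 to 31.4 in control males (median 22.4) and 16.01 to 25.1 in obesogenic males (median 20.9). All 7 obesogenic females and 7 of 8 obesogenic males lay below the mean of their controls, with overlapping ranges, and 6 of 6 and 7 of 8 did without the 5 libraries. Such counts, also those of Kcnk7, Kcnn2 and Kcng1, use the same values as the fold changes and are no separate evidence. The averaged log2 fold change was -0.27 ± 0.09 (95% interval -0.46 to -0.08, adjusted p = 0.464, edgeR), and -0.20 ± 0.09 (-0.38 to -0.03, adjusted p = 0.599) without the 5 libraries. It was -0.35 ± 0.14 in females and -0.19 ± 0.13 in males, and -0.17 ± 0.13 and -0.24 ± 0.12 with the 26 libraries. Kcnab3, a Kv1 beta subunit, was 12.8 to 188 CPM in control females, with control female 5 the highest, and 5.94 to 20.8 in obesogenic females. Its log2 fold change in females was -1.45 ± 0.46, and -0.31 ± 0.22 without the 5 libraries.

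The 3 members whose levels ran most like Kcnmb4 over the 31 libraries were Kcnip1 (Spearman 0.62), Kcnip2 (0.48) and Kcnf1 (0.47). Over the 26 libraries they were Kcnip1 (0.67), Kcnip2 (0.56) and Kcnk7 (0.47), with Kcnf1 at 0.45. Kcnk1 ran most like Kcnn2, with 0.56 over 31 libraries and 0.67 over 26. Kcnk7 ran most like Kcnmb4, at 0.40 over 31 and 0.47 over 26. The libraries share their normalisation, the 31 include control female 5 with its olfactory bulb markers, and the values are descriptions.

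The comparison of daughters with sons gave no call of a potassium channel gene either, where edgeR with 31 libraries did not call Xist. Within control dams 9 of 82 genes had an unadjusted p under 0.05, all higher in females, against 4.39% of all genes (3.32% higher in females), and 0 did without the 5 libraries, against 2.42%. DESeq2 and voom each had 5, against 4.01% and 4.97%. Kcnh3 (2.95 ± 0.75) and Kcnj4 (2.19 ± 0.63) led, and were -0.13 ± 0.22 and 0.03 ± 0.23 without the 5 libraries. Within obesogenic dams 0 of 82 genes had an unadjusted p under 0.05 in edgeR (1 against 4.3% in DESeq2, 3 against 8.03% in voom), against 3.63% of all genes. Without the 5 libraries 1 did, Kcnh3, against 5.48%. Kcnt1 had the smallest p there, at 0.29 ± 0.15, and 0.07 ± 0.10 without them. For the interaction of diet and sex the counts were 5 against 3.62% (2 against 3.67% in DESeq2, 4 against 8.8% in voom) and 1 against 3.48% without the 5 libraries.

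Potassium channel genes were long, with a median genomic span of 39.4 kb over the 82 tested against 19.5 kb over all genes tested, and 28.05% of them over 100 kb against 12.9%. Kcnip4 spanned 1135 kb and Kcna3 1.90 kb. Over all genes, longer ones had higher averaged log2 fold changes for maternal diet (Spearman 0.30 over 18743 genes, 0.26 without the 5 libraries). Within the family the correlation was 0.12 over 82 genes with span and 0.23 with exon length, and 0.08 and 0.17 without the 5 libraries. The 23 members over 100 kb had an averaged median of 0.04 and the 29 under 20 kb 0.01, where all genes of those lengths had 0.07 and -0.06. With 26 libraries both classes of members had 0.05, and all genes 0.06 and -0.04. Correlations are across genes, which are not replicates.

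**Figure D4:**
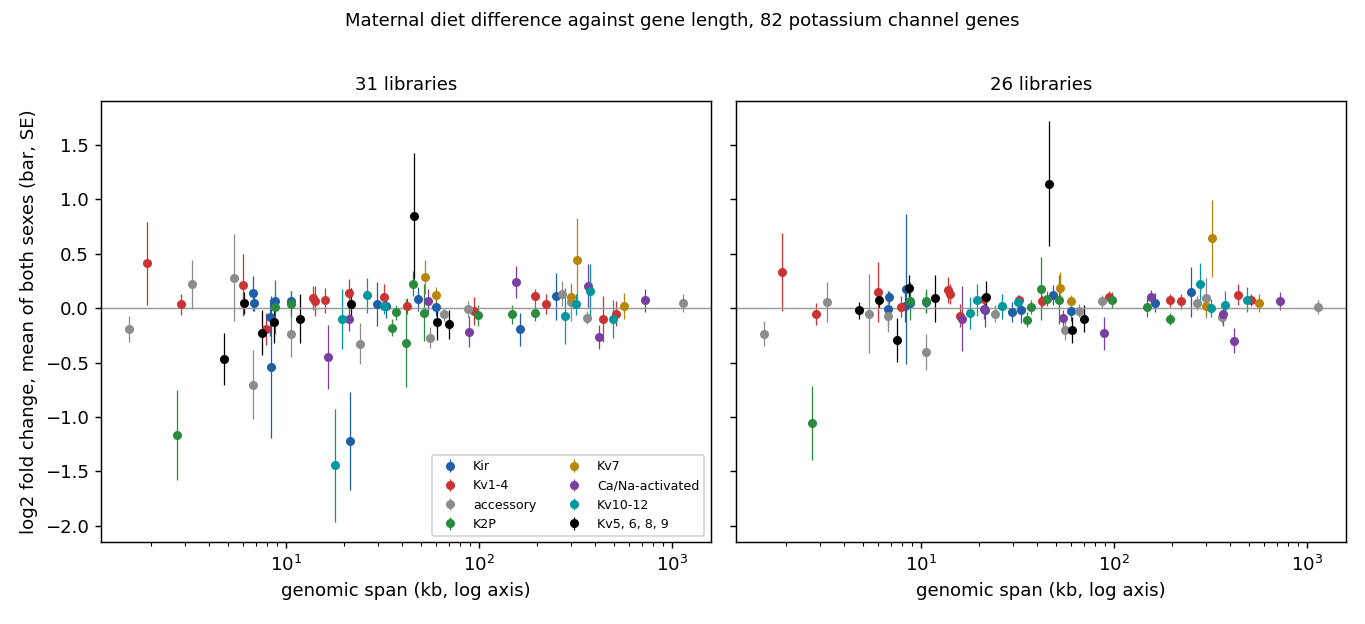
Log2 fold change for maternal diet averaged over the sexes (bars, SE) against genomic span in kb on a log axis for the 82 tested potassium channel genes, with 31 libraries (left) and 26 (right). Points spread around 0 at every length, and Kcnh3 (-1.45) and Kcnj4 (-1.22) stand out on the left but not on the right.

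The libraries that stood apart were picked for a low correlation over all genes tested, so differences in the members follow in part from that choice. In control female 5, 33 of 82 genes lay above and 23 below the range of the other 26 libraries, against 21.1% and 22.7% of all genes. Kcnh3 was 56.9 times and Kcnj4 31.1 times the median of the 26, Kcnab3 10.54 times, Kcnf1 7.75 times, Kcnip2 5.25 times and Kcnb2, a delayed-rectifier Kv2 pore, 4.98 times. Kcnj5 (0.730 CPM against 16.2), Kcnc4 (15.6 against 86.8) and Kcna6 (30.2 against 121) were low there. Silent subunits took 9.88% of the summed RPKM of the family in that library, against 2.97% to 4.10% in the other 26, and Kv10 to Kv12 pores 7.93% against 3.64% to 4.89%. Kcnk15, an untested leak subunit, had 15.5 CPM there and at most 0.224 CPM in the other 26. The part of the olfactory bulb markers in these values was not tested.

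In control male 6, 31 of 82 genes lay below the range of the 26 and 11 above it, against 28.4% and 26.7% of all genes. All 5 Kv7 genes, 9 of 15 Kv1 to Kv4 pores and 14 of the 23 genes over 100 kb were below. The share of all long genes below the range was not computed. More than 2-fold below the median of the 26 were 8 of the 23 long members and 595 of all 2424 genes over 100 kb. Kcna3, Kcnh8 and Kcnh4 were at 0 CPM, where a count of 0 allows up to 0.120 CPM. The 23 long members had a median deviation of -0.74 on the log2 scale and all genes over 100 kb one of -0.56. Kcnj13, a Kir channel of epithelia, was 3.67 CPM against a median of 0.328. In obesogenic female 3, 10 of 82 genes (12.2%) lay above and 14 (17.1%) below, against 17.7% and 19.9% of all genes. Kcnt1 was 205 CPM there against a median of 94.7, with Kcnk5 at 0 CPM, which allows up to 0.122 CPM.

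**Figure D5:**
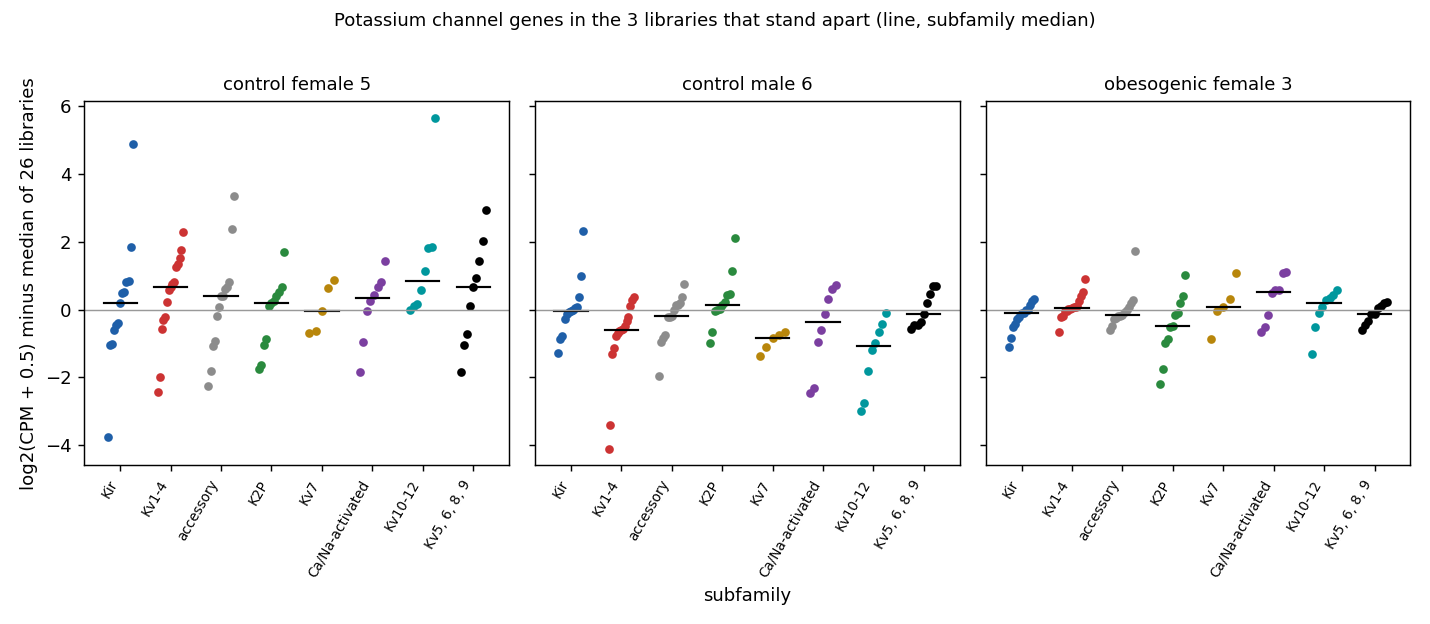
Deviation of each tested potassium channel gene from its median over the 26 other libraries, as log2(CPM + 0.5), by subfamily in control female 5, control male 6 and obesogenic female 3, with subfamily medians as lines. Kcnh3 (5.67) and Kcnj4 (4.88) are the highest points in control female 5, and all 5 Kv7 genes lie below 0 in control male 6.

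Genes that work with these channels without a Kcn symbol were followed as a list of 38, of which 36 were tested. None was called for diet averaged over the sexes (edgeR), and 4 of 36 had an unadjusted p under 0.05 against 10.2% of all genes, or 1 against 7.95% without the 5 libraries. Above 0 lay 21 of 36, with a median of 0.04, against 47.5% of all genes, and 25 of 36, with a median of 0.03, against 49.3% without the 5 libraries. Cntnap1, an axonal protein listed here with the Kv1 complexes, had 0.30 ± 0.11, and 0.17 ± 0.09 without the 5 libraries. Abcc8, the sulfonylurea receptor that joins Kcnj11, had 0.24 ± 0.11 and Ank3, the ankyrin that anchors Kv7 channels at the axon initial segment, 0.19 ± 0.08, each with an adjusted p of 0.464 (edgeR). Leaving out the 5 libraries gave 0.11 ± 0.09 and 0.16 ± 0.09. Tmem38a, an intracellular cation channel, had -0.14 ± 0.06, and -0.06 ± 0.05 without them.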

How the data were processed

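Hypothalamic RNA was sequenced in 31 libraries of 4 groups. The deposited values are whole counts of read pairs for each gene: per the file headers, the authors ran featureCounts 1.6.2 with Ensembl release 94 genes of GRCm38, kept pairs with both mates mapped and a mapping quality of at least 10, and counted the reverse strand. TopHat2 2.0.13, Subread, FastQC and edgeR with build mm10 are named per the submitters' processing notes, without parameters. Symbols and biotypes were matched for 54495 of 54532 gene IDs, and 0 columns were left unused.

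Counts were tested with edgeR 4.0.16 in R 4.3.3 (filterByExpr, TMM, robust quasi-likelihood fit of 4 group means, Benjamini-Hochberg over all genes tested, threshold 0.05); intervals are 95% intervals. CPM are TMM-scaled, except those of Xist and the Y-linked reads, which were scaled to total counts only. Deviations used log2(CPM + 0.5). The alternatives were 12 settings, among them DESeq2 1.42.0, limma 3.58.1 voom with quality weights and sva 3.50.0, and 5 single libraries left out. The procedure was tested on simulated data. The members, lists and tests were chosen with earlier results of these data known. Named genes were a list of channels by role, the 5 with the smallest p in each comparison and the 5 highest, longest, shortest and most variable; others named in the libraries that stood apart were chosen after their values were seen. Values of 2 genes are not reported singly here. Promoter sequences are RefSeq, GRCm38.p6. Libraries held 23118626 to 38547288 pairs, and a count of 0 still allows the level given beside it.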

Additional observations from a re-analysis of the deposited data

Results flagged for a closer look

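Among 19 potassium channel genes, each looked at in 4 groups, 13 values stood apart from the other libraries of their group by Dixon's test, which flags about 1 group in 20 by chance. Some of the 19 genes were named for a small p or a wide spread between libraries. The count of 13 is therefore not comparable with that rate. Of the 13 values, 9 came from the libraries that stand apart as a whole. Control female 5 was the highest control female for Kcnh3 at 233 CPM (others at most 8.19 CPM), Kcnj4 at 252.5 CPM (at most 10.9), Kcnf1 at 395 CPM (at most 64.2) and Kcnab3 at 188 CPM (at most 24.995). It was also the highest for Kcnj11 at 32.3 CPM (at most 22.6) and Kcnma1 at 185 CPM (at most 119), and the lowest for Kcnq3 at 53.0 CPM (others at least 78.5). Kcnab3 was highest in control male 6 at 30.5 CPM (at most 19.3), and Kcnt1 in obesogenic female 3 at 205 CPM (at most 108).

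The other 4 values came from libraries not otherwise in doubt. Kcnj10 was 892 CPM in control male 8, against 455 to 642 CPM in the other control males. Kcng1 was 10.2 CPM in obesogenic male 7, against 2.33 to 5.82 CPM. Kcnt1 was 145 CPM in control female 8, against 76.2 to 102 CPM. Kcnab3 was 10.98 CPM in obesogenic male 2, against 17.9 to 22.2 CPM.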

How the results depend on the processing

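No potassium channel gene was called under any of 17 alternatives, and the smallest adjusted p of any was 0.199. Counts at an unadjusted p under 0.05 ran from 3 to 15 of the members in females, 0 to 3 in males and 3 to 12 averaged, and from 0 to 11 for sex within control dams. Recomputed were 46 fold changes, a chosen list and the 5 of smallest p in each comparison, and not all those given above. Of 759 recomputed values, 741 kept their direction and 18, in 7 fold changes, did not. The averaged fold changes of Kcnj3 and Kcnj5, whose sign turned without the 5 libraries, were not among the 46. For diet averaged over the sexes, Kcnj10 was -0.019 with voom, -0.037 with 2 surrogate variables, -0.022 with the length trend removed, -0.0082 without the 3 libraries that stand apart, -0.018 without the 5 in doubt and -0.0029 without the 2 whose titles hold 2 numbers. With single libraries left out it ran from -0.013 (without control female 5) to 0.020. Kcnj8 was -0.0063 without the 5, Kcnj9 -0.010 with voom, Kcnma1 -0.025 with surrogate variables and -0.040 with the length trend removed, and Kcnq3 -0.040 with voom, -0.092 with surrogate variables and -0.011 without the 3 that stand apart. For sex within control dams, Kcnab3 was -0.057 with DESeq2 and -0.037 with surrogate variables, and ran from -0.055 to 1.28 with single libraries left out, the lowest without control female 5. Kcnh3 was -0.13 there without the 5. The cause of these reversals was not tested.

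No paired analysis was possible because the labels give no replicate numbers, and the numbers used here follow accession order only. Counting error and the spread between libraries were not separated as limits of precision; Kcnk7 rests on 483 pairs in all.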
